A study of Mus musculus with 77 samples.

Results

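Genes of ALK1 and BMP signaling were followed in the retinas of 77 C57BL/6 mice, 39 with oxygen-induced retinopathy (OIR) and 38 controls. The members are *Acvrl1*, *Eng*, *Smad1*, *Smad6*, *Smad7*, *Id1*, *Id2* and *Id3*. All probes of these genes were taken, which gave 9 of the 55681 probes tested and 8 of the 21154 genes with a symbol. *Smad1* had 2 probes on the array, here called a and b, and each other gene had 1. The genes were chosen with their values in these mice already known, so their levels and group differences are given as a description and without *p*-values.

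The OIR mice were kept with their dams in 75% oxygen from P7 to P12, and the control mice in 21% oxygen. After P12 all remaining mice stayed in room air. Retinas were taken from 13 OIR mice each on P12, P17 and P28, and from 12, 12 and 14 control mice. Each mouse gave 1 array, with both of its retinas pooled, on which its RNA was hybridized together with a universal mouse reference RNA. Oxygen was assigned to whole litters, and as the labels do not tie mice to litters, the comparison may hold an effect of the litter. Every mouse number occurred once, and no 2 arrays held the same values.

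ALK1, the product of *Acvrl1*, is a receptor kinase found mainly on endothelial cells. It binds BMP9 and BMP10, which circulate in blood, and endoglin (*Eng*) presents these ligands to it. The active receptor phosphorylates Smad1 and related Smads, which move to the nucleus with Smad4 and switch on the *Id* genes, inhibitors of basic helix-loop-helix factors, and *Smad6* and *Smad7*, which dampen the signal. Loss of ALK1 or endoglin causes hereditary hemorrhagic telangiectasia in humans, and blocking the pathway in newborn mice gives arteriovenous malformations in the retina. The *Id* genes and the Smads are also expressed in neurons and glia.

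Values are log2 ratios of retina to reference, computed after background correction with an offset of 50 (the offset ratio). A value of 0 means that a probe was equally bright in both. By the labels Cy5 holds the retina, but the rod genes were brighter in Cy3 on all 77 arrays, by at least 2.05 on the log2 scale, and Cy3 was taken as the retina. The direction of every value here therefore opposes the labels. The offset draws ratios of dim spots towards 0, so differences in the ratios as the authors deposited them, which have no offset, are given beside the main ones. A ratio compares a gene between mice, and says nothing of one gene's level against that of another.

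Whole retina was measured, in which endothelial cells are a minority, so the values cannot be assigned to vessels, and fewer cells of a type cannot be told apart from less RNA per cell. Of 8 endothelial markers, *Cldn5* was well above background on all 77 arrays, *Esam* on 70, *Pecam1* on 67, *Cdh5* on 64 and *Tie1* on 43, while *Emcn*, *Tek* and *Erg* reached this level on 23, 19 and 11. All 4 rod markers and all 6 Mueller glia markers did so on every array. Among the members, *Id1* and *Id3* were well above background on 77 arrays, *Acvrl1* and *Id2* on 75 and *Eng* on 66. *Smad7* reached this level on 42 arrays, *Smad6* on 38, and *Smad1* on 29 with probe a and 28 with probe b, so that the Smad genes were measured near the limit of detection. The arrays lay on 11 slides with 4 scan dates. Slide 6 held only P28 arrays and slide 7 held none, so changes between days are partly confounded with slide and scan date. The number of probes well above background on an array ran from 13801 to 34328. Over the 3 days its median in the OIR group was 20074, 20310 and 32916, and in the control group 21122, 20868.5 and 32192.5. On P28 the groups were spread unevenly over the slides. The P28 control arrays of slides 1, 2 and 3, which held no P28 OIR array, had 19969 to 21000 such probes. The P28 OIR arrays of slides 10 and 11, which held no P28 control array, had 19046 and 16912.

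To give the sequence context, promoter windows taken from RefSeq (GRCm38.p6) were used for 5 of the 8 members, namely *Eng*, *Smad1*, *Smad6*, *Id2* and *Id3*. The 250 bases upstream of the start are shown for *Eng*, which had the largest OIR difference of the members, and for *Id2* and *Id3*, which are textbook targets of BMP Smads. Capitals mark GGCGCC, the core of the BMP response element, and GTCT or its reverse complement AGAC, the Smad box. GGCGCC reads the same on both strands, and it shares no bases with GTCT or AGAC in these windows.
*Eng*: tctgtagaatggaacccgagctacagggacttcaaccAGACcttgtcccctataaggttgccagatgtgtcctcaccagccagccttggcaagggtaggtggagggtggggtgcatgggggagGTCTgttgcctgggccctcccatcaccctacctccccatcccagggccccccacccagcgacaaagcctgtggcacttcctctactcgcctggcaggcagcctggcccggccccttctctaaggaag
*Id2*: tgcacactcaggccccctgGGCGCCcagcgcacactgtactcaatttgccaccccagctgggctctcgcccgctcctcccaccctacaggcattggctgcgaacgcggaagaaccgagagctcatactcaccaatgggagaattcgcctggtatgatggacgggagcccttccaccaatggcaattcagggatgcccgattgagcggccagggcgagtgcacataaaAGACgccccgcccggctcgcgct
*Id3*: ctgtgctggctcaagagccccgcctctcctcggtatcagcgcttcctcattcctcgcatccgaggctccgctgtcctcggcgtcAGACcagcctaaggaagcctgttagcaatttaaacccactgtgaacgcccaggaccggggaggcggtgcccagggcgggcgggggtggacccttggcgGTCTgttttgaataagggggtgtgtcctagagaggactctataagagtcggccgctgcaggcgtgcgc
The *Eng* window lies at chr2:32646345-32646594 on the plus strand, that of *Id2* at chr12:25096093-25096342 on the minus strand, and that of *Id3* at chr4:136143572-136143821 on the plus strand. GGCGCC occurred 1 time upstream of *Id2* and in none of the other 4 member windows, against 9.59% of the 32851 RefSeq promoters. GTCT or AGAC occurred 2 times upstream of *Eng* and of *Id3*, 1 time upstream of *Id2* and of *Smad6*, and not upstream of *Smad1*. Of all promoters, 82.9% held at least 1 of the pair, with a median of 2, so that these short motifs are common. *Eng* held 4 CpG dinucleotides in its window, whereas *Smad1*, *Smad6*, *Id2* and *Id3* held between 18 and 27, at a GC content of 62.4 to 66.8% in all 5 windows.

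Among the receptors, *Acvrl1* was lower in OIR than in control mice on P12 and higher on P17. On P12 the log2 ratio of *Acvrl1* ran from 0.02 to 0.28 in the control mice, with a median of 0.21. In the OIR mice of that day it ran from -0.14 to 0.14, with a median of 0.02. All 13 OIR mice lay below the control mean, and 9 of the 12 control mice lay above every OIR mouse. The difference was -0.18 (SE 0.031), a fold change of 0.881. In the deposited ratios it was -0.58 (SE 0.091), or 0.667-fold.

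On P17 the *Acvrl1* ratio of the control mice ran from -0.06 to 0.54, with a median of 0.18. In the OIR mice it ran from 0.26 to 0.82, with a median of 0.56. All 13 OIR mice were above the control mean, 7 of them above every control mouse, and the remaining 6 overlapped with the upper controls. The difference was 0.33 (SE 0.064), a fold change of 1.25, and 0.78 (SE 0.13) in the deposited ratios. The difference between the effects of the 2 days was thus 0.51 (SE 0.067).

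By P28 the *Acvrl1* values of both groups covered the same range, from 0.05 to 0.36 in control and from 0.08 to 0.50 in OIR mice, with medians of 0.16 and 0.18. The difference was 0.03, with a 95% interval from -0.05 to 0.11, and 0.26 (SE 0.14) in the deposited ratios. With the slide as a fixed block it was 0.09 (SE 0.043). In control mice the mean of *Acvrl1* was nearly the same on the 3 days, at 0.18, 0.20 and 0.18. In the order of the 6 group means, OIR on P17 stood above and OIR on P12 stood below the other 4 groups by more than their spread, and those 4 groups differed by less than their SD.

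Endoglin is the co-receptor that binds BMP9 and BMP10 beside ALK1. On P12 the log2 ratio of *Eng* ran from -0.51 to 0.12 in control mice (median -0.24) and from -1.02 to -0.10 in OIR mice (median -0.38). Of the 13 OIR mice, 12 lay below the control mean, although the groups overlapped. The difference was -0.21 (SE 0.084), with a 95% interval from -0.38 to -0.04. In the deposited ratios it was -1.28 (SE 0.30), or 0.411-fold, and only 6 of the 13 OIR mice against 10 of the 12 control mice had *Eng* well above background, so that its size on P12 depends on how dim spots were treated.

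On P17 the *Eng* groups did not overlap. Control mice ran from -0.83 to -0.08 (median -0.31) and OIR mice from 0.01 to 0.61 (median 0.17), with all 13 OIR mice above all 12 control mice. The difference was 0.59 (SE 0.081), a fold change of 1.5, and 1.48 (SE 0.21) in the deposited ratios. The effect had moved by 0.80 (SE 0.12) from P12. On P28 the *Eng* ratio ran from -0.83 to -0.09 in control and from -0.89 to -0.11 in OIR mice. The P28 difference was 0.05, with an interval from -0.13 to 0.22, and 0.31 (SE 0.14) in the deposited ratios. It was 0.13 (SE 0.051) with the slide as a fixed block. The mean of *Eng* in OIR mice was lower by 0.76 on P28 than on P17, and that of the control mice by 0.22 (SE 0.085). With the slide as a fixed block this control difference was -0.14 (SE 0.073). The part of the scan date in these steps was not tested. In the order of the 6 means, OIR on P17 stood above the next group by more than the SD, and no other neighbors did.

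**Figure D1:**
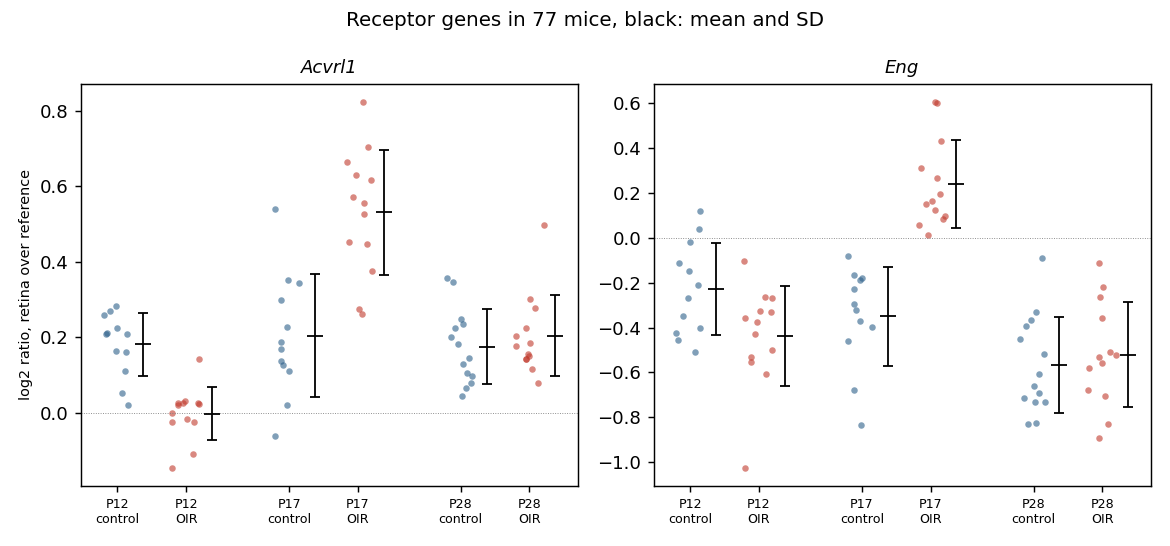
Log2 ratio of retina to reference (y axis) of Acvrl1 (left) and Eng (right) in each of 77 mice, grouped by day and oxygen (x axis), control in blue and OIR in red, with the group mean and SD in black. Both genes lie lower in OIR on P12 and higher on P17, when all 13 OIR mice have Eng values above all 12 control mice, and the groups cover similar ranges on P28.

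Both receptor genes showed the same direction on every slide that held both groups of a day. On P12 the difference within slides was negative on 7 of 7 slides, between -0.22 and -0.07 for *Acvrl1* and between -0.82 and -0.05 for *Eng*. On P17 it was positive on 6 of 6 slides, between 0.20 and 0.48 for *Acvrl1* and between 0.22 and 1.09 for *Eng*. On P28 it was positive on 3 of 3 slides, with medians of 0.10 and 0.09. In the reference channel alone, in which no difference between mice is due to the retina, *Eng* differed by -0.01 (SE 0.037) on P12 and -0.03 (SE 0.032) on P17, and *Acvrl1* by less than 0.02 on both days. The *Acvrl1* difference in the reference channel was -0.07 (SE 0.028) on P28.

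**Figure D2:**
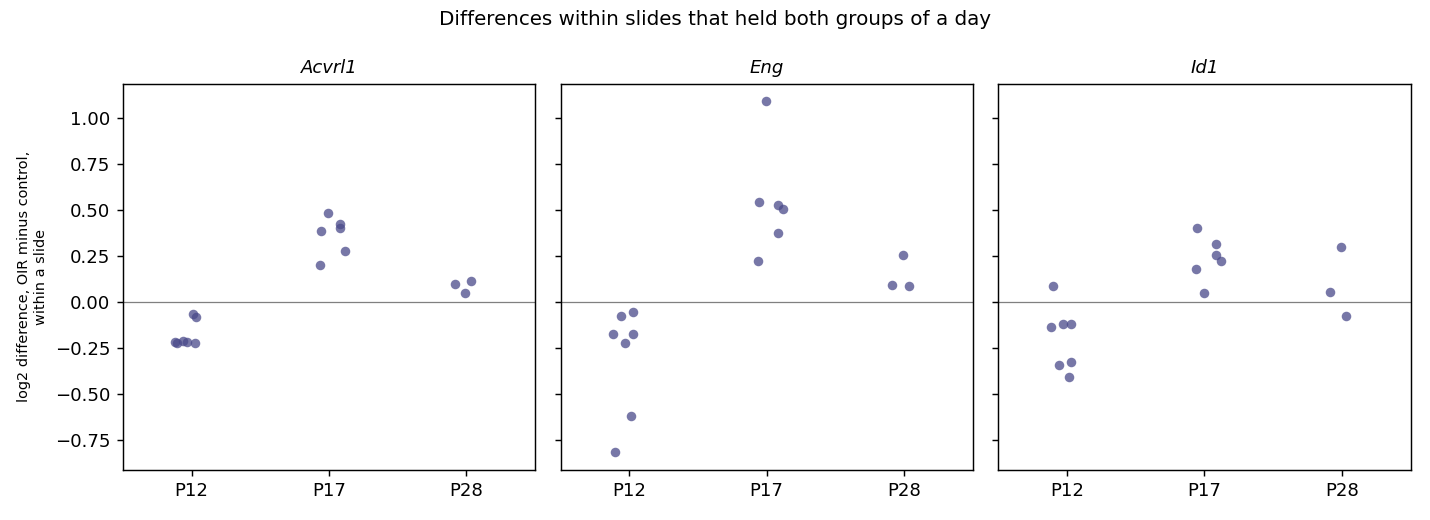
Log2 difference, OIR minus control, of the mean ratios within each slide that held both groups of a day (y axis), by day (x axis), for Acvrl1, Eng and Id1; each point is 1 slide, with 7 slides on P12, 6 on P17 and 3 on P28. Acvrl1 and Eng lie below 0 on all P12 slides and above 0 on all P17 slides.

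Of the 9 member probes, 1 was differentially expressed as lower on P12 (*Acvrl1*), against 0.0233% of all probes at an adjusted *p* under 0.05, and 2 as higher on P17 (*Acvrl1* and *Eng*), against 0.803%. The change of the effect from P12 to P17 passed as higher for the same 2 probes, against 0.436% of all probes, and that from P17 to P28 as lower for the same 2, against 0.244%. The latter call was lost in the deposited ratios, in which neither gene passed (against 0.472% of all probes), and for *Acvrl1* also with the slide as a fixed block, while the sign stayed. On P17 *Id2* passed too in the deposited ratios, as lower, against 0.973% of all probes. On P28 none of the 9 passed in either direction, against 0.0611%, and 2 of them, *Id3* and *Smad7*, had an unadjusted *p* under 0.05, against 7.44% of all probes. These counts describe how the genes were selected and carry no support of their own.

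Markers of other cell types also differed between the groups. The mean log2 ratio of the 8 endothelial markers had a median on P12 of 0.35 in control and 0.17 in OIR mice (ranges 0.15 to 0.70 and 0.05 to 0.39), of 0.33 and 0.40 on P17 (0.16 to 0.74 and 0.30 to 0.94), and of 0.40 and 0.50 on P28. In the test across all probes, no endothelial marker passed on P12, P17 or P28. The effect on *Cdh5*, which encodes VE-cadherin, changed by 0.58 (SE 0.12) from P12 to P17 (limma, adjusted *p* = 0.00175), from -0.30 on P12 to 0.27 on P17, and no other endothelial marker passed this comparison. For *Pecam1* the same change was 0.06 (SE 0.033). The mean of the 6 mural cell markers had a median of -0.83 in control and -0.43 in OIR mice on P17 (ranges -1.27 to -0.49 and -0.79 to -0.13), and that of the 5 markers of astrocytes and reactive glia one of -0.82 and -0.24 (-1.12 to -0.64 and -0.53 to 0.11). The 6 Mueller glia markers had a median of 3.36 in control and 2.88 in OIR mice on P17 (2.21 to 3.88 and 2.51 to 3.38), the 6 microglia markers one of -0.42 and -0.21 (-0.51 to -0.17 and -0.33 to 0.06), and the 4 markers of pigment epithelium one of 0.90 and 0.47 (0.34 to 1.36 and 0.25 to 0.80). *Pax2*, a marker of astrocytes and reactive glia, and *Best1*, one of pigment epithelium, were not well above background on any array. The part of these markers in the differences of *Acvrl1* and *Eng* was not tested.

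Smad1 carries the signal of ALK1 and of other BMP receptors to the nucleus. The log2 ratio of *Smad1* lay between -0.22 and 0.42 over all mice with probe a and between -0.31 and 0.10 with probe b. Its OIR differences ranged from -0.07 to 0.07 with probe a and from -0.03 to 0.05 with probe b on the 3 days, and the probes had opposite signs on each day. The deposited ratios gave differences on P12, P17 and P28 of -0.13 (SE 0.34), -0.73 (SE 0.41) and 0.37 (SE 0.39) with probe a, and 0.54 (SE 0.30), 0.06 (SE 0.26) and 0.11 (SE 0.23) with probe b, so that both were positive on P28. The 95% intervals of all 6 differences in the offset ratio included 0, and with either probe no neighbors in the order of the 6 group means differed by more than their SD. On P17 probe a was lower in OIR on 6 of 6 slides, by 0.01 to 0.18, whereas probe b was lower on 3 and higher on 3.

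Smad6 and Smad7 inhibit the pathway. On P12 *Smad6* ran from -0.67 to -0.31 in control and from -0.75 to -0.13 in OIR mice, and on P17 from -0.82 to -0.23 and from -0.68 to -0.17, so the groups overlapped on both days. On P12 the difference was 0.10 (SE 0.058), on P17 0.12 (SE 0.065) and on P28 -0.12 (SE 0.11). In the deposited ratios the signs on P12 and P28 were turned, at -0.11 (SE 0.32) and 0.35 (SE 0.19), and the P17 difference was 0.73 (SE 0.26). *Smad7* differed by 0.05 (SE 0.059), 0.08 (SE 0.057) and 0.11 (SE 0.045) on the 3 days. In the deposited ratios the P12 sign was turned, at -0.21 (SE 0.19), and the other differences were 0.07 (SE 0.29) and 0.37 (SE 0.19). On P28 *Smad7* ran from -0.53 to -0.17 in control and from -0.43 to -0.03 in OIR mice, with medians of -0.33 and -0.23, and 11 of 13 OIR mice lay above the control mean. The 4 OIR mice with the highest *Smad7* values were above every control mouse.

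**Figure D3:**
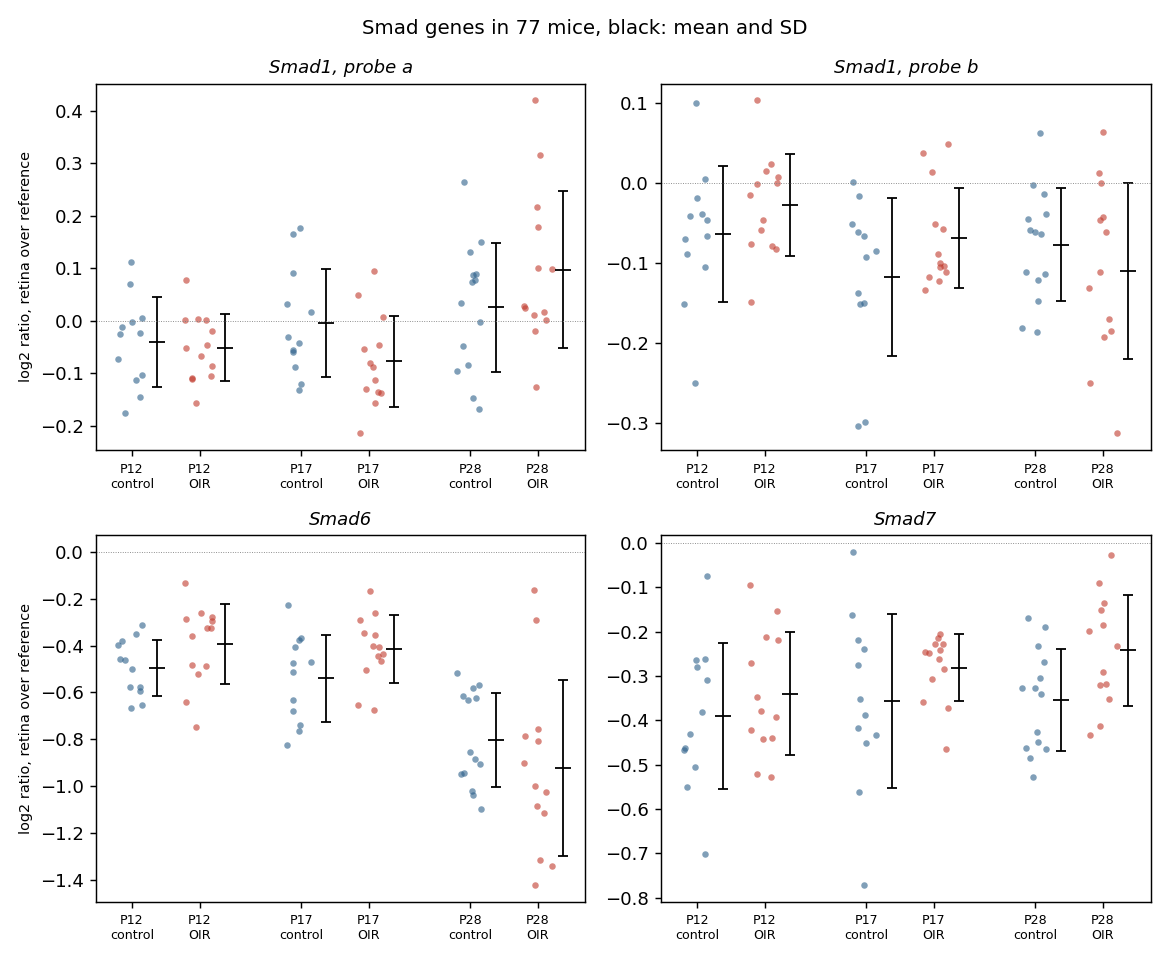
Log2 ratio of retina to reference (y axis) of both Smad1 probes, Smad6 and Smad7 in each of 77 mice by day and oxygen (x axis), control in blue and OIR in red, with the group mean and SD in black. OIR and control mice overlap on every day with all 4 probes, and Smad6 lies lower on P28 in both groups.

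The *Id* genes encode proteins that bind basic helix-loop-helix factors and keep them from DNA, and *Id1* is among the most direct readouts of ALK1 in endothelial cells. On P12 the log2 ratio of *Id1* ran from -0.11 to 0.92 in control mice (median 0.17) and from -0.37 to 0.96 in OIR mice (median -0.09). Of the 13 OIR mice 12 were below the control mean, and the remaining one had the highest value of both groups. The difference was -0.24 (SE 0.13), with an interval from -0.50 to 0.02, and -0.18 (SE 0.046) with the slide as a block. On P17 *Id1* ran from -0.45 to 1.06 in control (median -0.06) and from -0.22 to 0.64 in OIR mice (median 0.23), a difference of 0.17 (SE 0.14). It was higher in OIR on 6 of 6 slides on P17, by 0.05 to 0.40, and lower on 6 of 7 slides on P12. On P28 the difference was 0.14 (SE 0.091). The 3 differences of *Id1* were -0.36 (SE 0.15), 0.32 (SE 0.17) and 0.26 (SE 0.14) in the deposited ratios. *Id1* thus had the same signs as *Acvrl1* and *Eng* on P12 and P17, but its groups overlapped on each day and its intervals in the offset ratio included 0. On P28 the differences of all 3 genes were positive, but their intervals included 0. That of *Acvrl1* was -0.08 (SE 0.067) in the retina channel alone.

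*Id2* had a different course. On P12 it ran from -1.89 to -0.40 in control and from -1.80 to -0.73 in OIR mice, with a difference of 0.01 (SE 0.14). On P17 it ran from -1.83 to -0.82 in control mice (median -1.47) and from -1.90 to -1.30 in OIR mice (median -1.70). Of the 13 OIR mice 11 were below the control mean, and 4 control mice were above every OIR mouse. The difference on P17 was -0.27 (SE 0.10), 0.83-fold, and -0.86 (SE 0.23) in the deposited ratios, in which alone of the alternatives it passed the threshold, and it was negative on 5 of 6 slides. On P28 the difference was 0.00, with an interval from -0.16 to 0.16.

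*Id3* was close in both groups on P12 and P17, with differences of 0.04 (SE 0.17) and 0.06 (SE 0.12). The lowest value of this gene, -2.11, was that of 1 OIR mouse on P12. On P28 it ran from -1.26 to -0.53 in control (median -0.93) and from -1.28 to -0.48 in OIR mice (median -0.73), and 11 of 13 OIR mice were above the control mean. The difference was 0.19 (SE 0.074), and 0.09 (SE 0.074) with the slide as a block. The differences of *Id3* were 0.01 (SE 0.26), -0.10 (SE 0.16) and 0.25 (SE 0.13) in the deposited ratios. Only 3 slides held both groups on P28, and *Id3* was higher in OIR on 2 of them. In the order of the group means the neighbors differed by less than their SD for *Id2* and *Id3*, and for *Id1* the one wider gap lay between the 4 groups of P12 and P17 and both groups of P28.

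**Figure D4:**
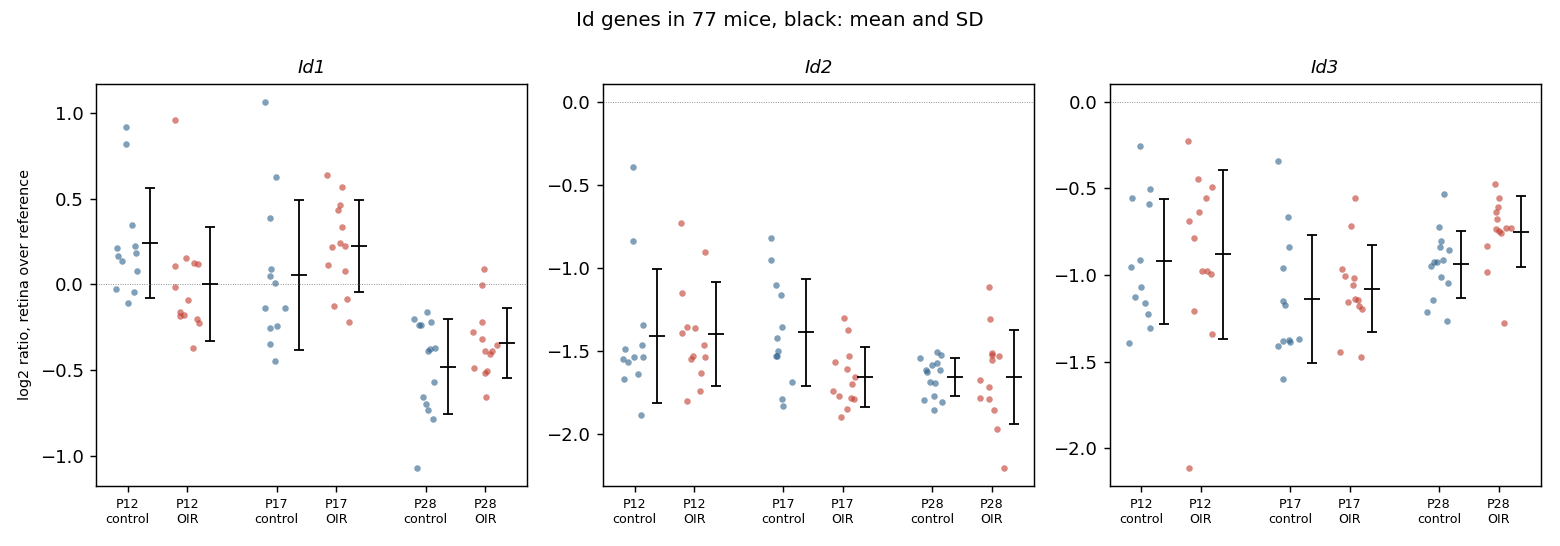
Log2 ratio of retina to reference (y axis) of Id1, Id2 and Id3 in each of 77 mice by day and oxygen (x axis), control in blue and OIR in red, with the group mean and SD in black. Id1 lies lower on P28 than on the earlier days in both groups, and OIR and control mice overlap on every day for all 3 genes.

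**Figure D5:**
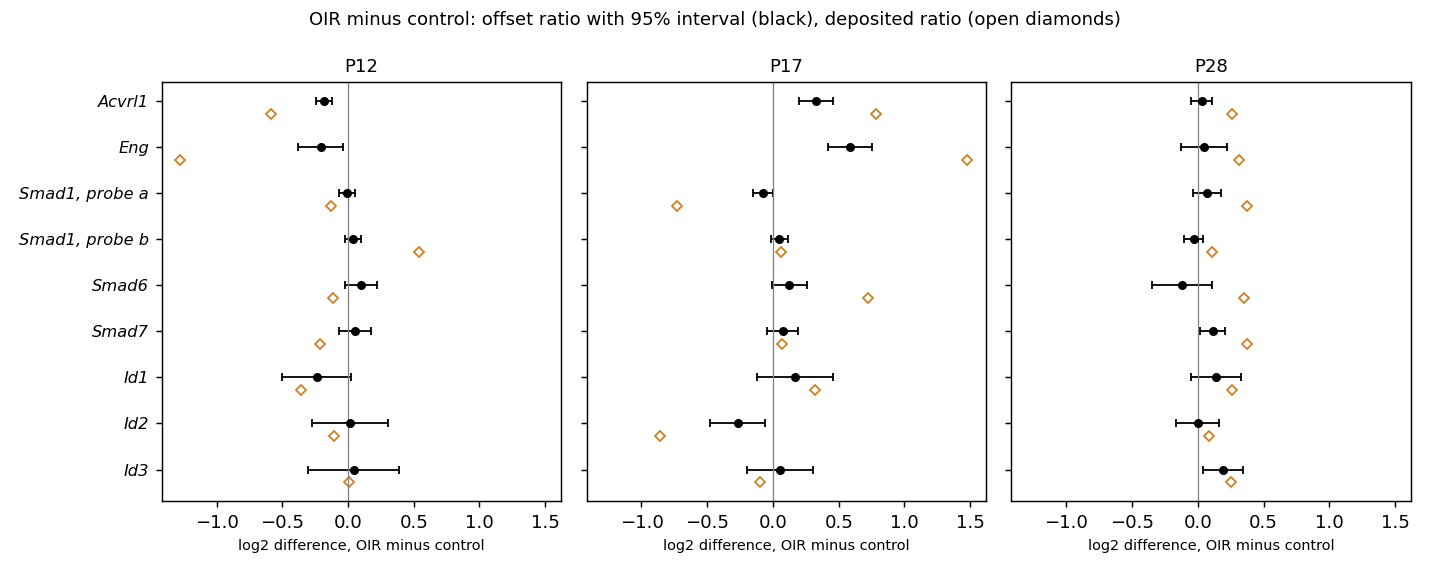
Log2 difference, OIR minus control (x axis), of the 9 member probes (y axis) on P12, P17 and P28; black points are the offset ratio with its 95% interval and open diamonds the ratio as deposited. The 95% intervals of Acvrl1 and Eng lie below 0 on P12 and above 0 on P17, and the deposited ratios of Eng differ most, at -1.28 and 1.48.

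In control mice none of the 9 probes was differentially expressed between P12 and P17, against 1.28% of all probes in either direction, and none had an unadjusted *p* under 0.05. Between P17 and P28, 2 were lower, *Id1* and *Smad6*, against 5.38% of all probes, and none was higher, against 7.97%. The *Id1* means of the control group on the 3 days were 0.24, 0.06 and -0.48, so that it was lower by 0.53 (SE 0.12) on P28 than on P17. In OIR mice the step over the same days was -0.56, and the 3 means were 0.00, 0.22 and -0.34. *Smad6* was lower by 0.26 (SE 0.085) in the control mice, but by 0.11 (SE 0.27) in the deposited ratios and by 0.03 (SE 0.070) in the retina channel alone. The arrays of P28 had more probes above background than those of P17, as given above, and within groups *Smad6* was lower on arrays with more such probes (Pearson's r = -0.74, permutation p = 1e-05, adjusted over the 8 members 4e-05; Spearman's rho = -0.72, p = 1e-05; r = -0.66 without the 2 arrays farthest from the median; 1e-05 is the smallest p the permutations can give). The part of array brightness in the *Smad6* course was not tested.

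The rest of the pathway was described with 50 further genes, measured by 67 probes, in 6 lists. On P12 none of the 67 probes was differentially expressed (limma), against 0.0233% of all probes, and none had an unadjusted *p* under 0.05, against 3.12%. On P17 there were 2, both higher in OIR, against 0.803%, of which *Acvr2b* is described here. *Acvr2b*, a type II receptor for activins and several BMPs, ran from 1.69 to 2.67 in control mice (median 2.35) and from 2.43 to 3.21 in OIR mice (median 2.82). All 13 OIR mice were above the control mean and 8 were above every control mouse. *Acvr2b* rose by 0.52 (SE 0.11, adjusted *p* = 0.0127). On P28 none of the 67 probes passed, while 12 had an unadjusted *p* under 0.05, all of them higher in OIR, against 4.09% of all probes. Of the P28 mice, 11 of 13 OIR but only 8 of 14 control mice lay on slides that held both groups. The part of slide and array brightness in these 12 probes was not tested.

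By role, counts are given for 5 of the 6 lists. On P17, 1 of the 16 probes for receptors and co-receptors passed. None passed of the 12 probes for BMP and TGF-beta ligands, the 8 for other Smads, the 13 for extracellular modulators such as noggin and gremlin, and the 10 for intracellular regulators such as the Smurf ligases. The median difference of the ligand probes was 0.02 on P17 and that of the receptor probes 0.03, beside 0.00 for all probes tested.

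The genes of the ALK1 ligands, *Gdf2* and *Bmp10*, were near background in the retina. *Gdf2*, which encodes BMP9 and is made mainly in the liver, was well above background in at most 2 mice of any group on P12 and P17, and in 9 control and 10 OIR mice on P28. *Bmp10*, made in the heart, reached this level on 1 of the 77 arrays. *Bmp6*, of the other BMP ligands, did so in no more than 1 mouse of any group on P12 and P17, and in 4 control and 6 OIR mice on P28. The P28 arrays had more probes above background in general, with a median of 32192.5 in control and 32916 in OIR mice. On P17 these medians were 20868.5 and 20310. The part of array brightness in the P28 counts of *Gdf2* and *Bmp6* was not tested. Of the 2 probes of *Bmp4*, one was not well above background on any array and the other was so on all arrays, with an OIR difference of 0.16 (SE 0.20) on P12, 0.08 (SE 0.17) on P17 and 0.25 (SE 0.20) on P28. *Bmpr2*, the type II receptor that pairs with ALK1, was well above background in every mouse. Its differences were -0.03 (SE 0.083), 0.07 (SE 0.066) and 0.17 (SE 0.089), none of which passed.

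The change of the OIR effect from P12 to P17 passed for 1 of the 67 probes, that of *Acvr2b*, at 0.54 (SE 0.13, limma, adjusted *p* = 0.0229), against 0.48% of all probes, while 4 had an unadjusted *p* under 0.05, against 4.86% of all probes. From P17 to P28 none passed, against 0.278%, and 16 had an unadjusted *p* under 0.05, against 14% of all probes.

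In control mice no pathway probe passed between P12 and P17 (limma), with 5 at an unadjusted *p* under 0.05, against 8.21% of all probes. Between P17 and P28, 9 of the 67 passed, a share close to the 13.4% of all probes, so that the count is no result about the pathway. Of these, 5 fell, and 4 of them are named here. *Bmp4* decreased by 0.90 with 1 of its 2 probes (SE 0.19, adjusted *p* = 0.000573), the BMP antagonists *Grem1* and *Fst* by 0.87 and 0.63, and *Tgfb1* by 0.63. The other 4 rose, namely *Smad4*, the common partner of the receptor Smads, by 0.56 with 1 of its 2 probes (SE 0.096, adjusted *p* = 2.28e-05), the ubiquitin ligase *Smurf2* by 0.27 with 1 of its 3 probes, *Tgfb3* by 0.20 and the Smad co-repressor *Skil* by 0.09 with 1 of its 2 probes. In the retina channel alone *Tgfb1* decreased by 0.06 and *Fst* by 0.12, and neither passed there.

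The genes most like each of 3 members over the 77 arrays were found among 11916 genes above background on at least 1 in 2 arrays. These correlations include the differences between groups and share the arrays and their brightness. For *Acvrl1* they were *Adcy4*, an adenylate cyclase (r = 0.859), *Higd1b* (0.822), *Egfl7*, a secreted protein of endothelial cells (0.799), *Robo4*, an endothelial guidance receptor (0.791), and *Ndufa4l2* (0.763). For *Eng* they were *Cd248*, or endosialin (0.885), the matrix protein gene *Vwa1* (0.876), *Adgre5*, or CD97 (0.875), *Nes*, or nestin (0.866), and *Apln*, the ligand apelin (0.860). For *Id1* they were *Tmsb4x*, or thymosin beta 4 (0.844), *Lsm3* (0.805), *Ppib* (0.795), *Lsm5* (0.794) and *Rnf149* (0.794). *Acvrl1* and *Eng* thus had no gene in common among their 5. With the group means removed, r with *Acvrl1* was 0.680 for *Adcy4* but 0.386 for *Egfl7* and 0.291 for *Ndufa4l2*. For the 5 genes of *Eng* it then lay between 0.650 and 0.757, and for those of *Id1* between 0.671 and 0.751.

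The members were also compared between mice of one group, which the choice of genes did not use. *Acvrl1* and *Eng*, which differed in the same direction between OIR and control on P12 and P17, showed no correlation within groups in the main ratios (Pearson's r = 0.03, permutation p = 0.77, adjusted 0.799, Spearman's rho = 0.04 with p = 0.749, r = 0.06 without the 2 mice farthest from the median). With the slide means also removed r was 0.24, for which no p was computed. Whether the 2 genes vary together within slides was thus not tested. Within groups, 4 of the 8 members also correlated with the number of probes above background per array. The r was 0.55 for *Smad1*, -0.44 for *Eng*, -0.74 for *Smad6* and -0.33 for *Smad7*. The share over all probes was not computed for this relation, so the count is no result about the members. Of the 28 pairs of members 13 passed after adjustment over the pairs, but the share over all probe pairs was not computed. The highest were *Smad7* with *Id2* (r = 0.61, permutation p = 1e-05, adjusted 0.00014, Spearman's rho = 0.64 with p = 1e-05, and 0.57 without 2 mice) and *Id1* with *Id2* (r = 0.55, permutation p = 1e-05, adjusted 0.00014, Spearman's rho = 0.47 with p = 4e-05, and 0.52 without 2 mice). Both were positive in all 6 groups, and were 0.46 and 0.47 with the slide means removed. *Eng* with *Id3* had an r of 0.50 (permutation p = 4e-05, adjusted 0.000224, Spearman's rho = 0.41 with p = 0.00032, and 0.48 without 2 mice), which was positive in 5 of the 6 groups and stayed at 0.50 with the slide means removed. *Eng* with *Smad6* had an r of 0.49 (permutation p = 2e-05, adjusted 0.00014, Spearman's rho = 0.43 with p = 0.00025, and 0.46 without 2 mice), which was 0.07 once the slide means were removed, so it did not hold within slides.

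Mice of one group also differed in their endothelial score, the mean of the 8 standardized endothelial markers. Of the 8 members 4 correlated with this score, namely *Acvrl1*, *Smad1* and *Id1* with a positive r and *Smad6* with a negative one. With a like score of 6 Mueller glia markers 6 correlated, adjusted over the 16 relations of both scores. Of these *Acvrl1* had a positive r, and *Eng*, *Smad6*, *Smad7*, *Id2* and *Id3* had a negative one. The share of all probes that would pass was not computed. The median r of the 21941 probes above background was 0.205 with the endothelial and 0.118 with the glia score. Which members passed depended on the processing. With the endothelial score they were *Smad1*, *Smad7*, *Id2* and *Id3* in the deposited ratios, and *Eng* and the same 4 in the retina channel alone. *Smad1* was thus the one member shared with the main ratios in either case. For *Acvrl1* r was 0.38 (permutation p = 0.00209, adjusted 0.00426, Spearman's rho = 0.22 with p = 0.0656, r = 0.28 without the 2 mice farthest from the median), and it was positive in 4 of the 6 groups, but r was -0.22 in the deposited ratios. As many as 39.0% of the 21941 probes above background had an r with the endothelial score at least that high. The like share was 28.1% for the r of *Smad1* and 46.3% for that of *Id1*. For *Eng* r was -0.07 (permutation p = 0.542, adjusted 0.578, Spearman's rho = -0.10 with p = 0.396, r = -0.20 without 2 mice), but 0.45 with the slide means removed (permutation p = 0.00025, adjusted 0.00133) and 0.64 in the retina channel alone. *Smad6* had the lowest r with the endothelial score, -0.68 (permutation p = 1e-05, adjusted 8e-05, Spearman's rho = -0.67 with p = 1e-05, r = -0.70 without 2 mice), and -0.50 with the slide means removed (permutation p = 2e-05, adjusted 0.00016). This relation did not hold in the deposited ratios (r = -0.10, permutation p = 0.439) or in the retina channel alone (r = -0.19, permutation p = 0.134). These values changed with the processing and, for some members such as *Eng*, with the removal of the slide means. The part of array brightness in them was not tested. They are therefore given as a description of the arrays and not of the vessels.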

How the data were processed

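Per the labels and the study's methods, the authors pooled both retinas of a mouse and hybridized the labeled RNA with universal mouse reference RNA on 2-color Agilent arrays. The arrays were scanned with a SureScan scanner, and the data extracted with Feature Extraction (10.7.3.1 per the file headers). Each deposited scanner file holds intensity values of both channels without normalization, and the authors' deposited table holds log2 ratios of the processed, background-subtracted and dye-normalized signals, which equal log2 Cy3 over Cy5 for 100% of single-spot probes (tolerance 0.001).

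Intensities were corrected by normexp (offset 50) and normalized by loess within arrays in limma 3.58.1 under R 4.3.3, with control and outlier spots given no weight. Outlier spots (0.592 to 0.951% per array) were left out and spots of one probe averaged. Values were missing on some arrays for 482 of the 55681 probes, but for no member probe. Probes were named through RefSeq transcripts (28026 probes, 21154 genes), and a gene was represented by its brightest probe where 1 value was needed.

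OIR and control mice were compared per day by the moderated statistic of limma with the Benjamini-Hochberg adjustment over all probes (threshold 0.05), and changes between days in one model of the 6 groups. The *p*-values measure the spread between mice, which were taken as independent. They leave out the litter and, in the main fits and the permutations, also the slide. Relations between mice used deviations from group means and 2-sided permutation tests with 100000 resamples within groups. Of 1078 marker values 1 was missing and took its group mean. Named were all members, *Gdf2*, *Bmp10*, *Bmp4*, *Bmp6*, *Bmpr2*, at most 12 pathway genes that passed per comparison, and the 5 genes most like *Acvrl1*, *Eng* and *Id1*. One pathway gene is not reported here by name, though the counts include it. The members, lists and alternatives were chosen with earlier results of these data known. The fits were also run on simulated data of independent normal values. These held no structure of slide or litter, so the run cannot speak to such effects. The alternatives tried were the deposited ratios, no background subtraction, an offset of 0, slide as a fixed or random block, only probes well above background on 50% of arrays of a group, trend and robust variances, one fit per series, the retina channel alone, array weights, and rank correlation.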

Additional observations from a re-analysis of the deposited data

Results flagged for a closer look

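The OIR effect on *Acvrl1* had opposite directions on P12 and P17. All 13 OIR mice were below the control mean on P12 and all 13 above it on P17, and the effects differed by 0.509 on the log2 scale. As the gene was chosen with both effects known, the difference is given as a description and no *p* is given for it. The lowest value of the change was 0.48, with the slide as a fixed block, and the highest 1.44, with an offset of 0.

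The OIR effect on *Acvr2b* changed by 0.543 from P12, when it was -0.02, to P17, when it was 0.52 (limma, adjusted *p* = 0.0229). Over the 9 alternatives the change ran from 0.386, in the retina channel alone, to 0.57, with array weights, and it missed the threshold with an offset of 0 (adjusted *p* = 0.0675).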

How the results depend on the processing

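No paired analysis was possible because every mouse number in the labels occurs once. Of 76 recomputed counts, 50 stayed within 1.5 times the main count, 45 of 66 for the pathway probes and 5 of 10 for the correlations. Of 264 recomputed OIR differences of the 9 member probes, 239 had the sign of the main value; *Acvrl1* and *Eng* kept theirs on P12 and P17 under all 10 alternatives. *Acvrl1* passed on P12 under 6 of these 10, and both genes passed on P17 under all 10. The change from P17 to P28 passed under 7 of 9 alternatives for *Acvrl1* and 8 of 9 for *Eng*. Both genes were chosen with these values known, so these passes carry no support of their own. They show only how the calls move with the processing. Of all probes, the share that passed under each alternative is not given here.

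The number of pathway probes that passed on P17 was 4 in place of 2 with the deposited ratios and with the retina channel alone, and on P28 it was 1 in place of 0 in one fit over the 6 groups. For the change from P12 to P17 it was 2 with an offset of 0 and with the slide as a fixed block, 3 with array weights, 4 with the deposited ratios and 5 with the retina channel alone, in place of 1. For the change from P17 to P28 it was 1 with an offset of 0 and with the slide as a fixed block, 2 with the deposited ratios and with the retina channel alone, and 4 with array weights, in place of 0. Between control mice of P12 and P17 it was 1 without background subtraction and with the slide as a random block, 2 with an offset of 0, with the retina channel alone and with array weights, 3 with the slide as a fixed block and 5 with the deposited ratios, in place of 0. Between control mice of P17 and P28 it was 34 with array weights, in place of 9. The number of members correlated with the endothelial score was 2 in place of 4 without background subtraction and by Spearman's rho, and that with the glia score 2 in place of 6 without background subtraction and with slide means removed, and 3 by rho. Of the 4 members correlated with the endothelial score, 1 also passed in the deposited ratios, 1 in the retina channel alone and 2 with slide means removed.

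Some within-group correlations changed sign. With the deposited ratios r with the endothelial score became -0.222 for *Acvrl1* and 0.365 for *Smad7*, and r with the glia score 0.178 for *Eng* and -0.569 for *Smad1*. With the retina channel alone r with the endothelial score became -0.0872 for *Acvrl1*, 0.639 for *Eng* and 0.395 for *Smad7*, and r with the glia score -0.419 for *Acvrl1*, 0.377 for *Eng*, 0.317 for *Smad7*, 0.684 for *Id2* and 0.64 for *Id3*. With slide means removed, r of *Eng* became 0.449 with the endothelial and 0.0229 with the glia score. The cause of these changes was not tested. Signal near background limits what can be said of the Smad genes and of *Eng* on P12.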
